A study of Homo sapiens with 4 samples.

Results

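Genes for glutamine use and neutral amino acid transport were examined in BE(2)C cells, a human neuroblastoma line with MYCN amplification, after knockdown of MYCN by small interfering RNA (siRNA). The set is defined by symbol and was chosen with earlier results of these data known, so its counts and medians below are descriptive. It holds 9 of the 26364 genes listed in each sample: the transporters SLC1A5, SLC38A1, SLC38A2, SLC38A5, SLC7A5, SLC3A2 and SLC1A4, and the enzymes GLS2 and GLUL. A non-targeting siRNA was given to the control (Ctrl, 2 samples), and an siRNA against MYCN to the knockdown (MYCN KD, 2 samples). The sample labels give the siRNA at 80 nM with an incubation of 6 h, whereas the methods of the study give a lower final concentration. RNA was taken on the next day. Both groups come from the same line, grown in the same medium with serum and transfected with the same lipid reagent, so that the control carries the transfection too. The model is a single line with a single siRNA sequence against MYCN. The methods of the study speak of biological replicates, but neither they nor the labels say whether these were separate cultures. Part of the spread that the p-values measure may thus be technical. It is also the spread left after the authors' adjustment for unwanted variation, and may be smaller than that between unadjusted samples.

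Glutamine supplies carbon to the citric acid cycle through glutamate, and nitrogen to nucleotides, asparagine and amino sugars. Cells take it up through sodium-dependent carriers, and part of it leaves again through an exchanger that brings leucine and other large neutral amino acids in, by which transport is tied to the growth kinase complex mTORC1. Glutaminases turn glutamine into glutamate, and glutamine synthetase runs the reverse direction. Proteins of the MYC family are known as activators of glutamine uptake and breakdown in several tumours, and neuroblastoma with amplified MYCN is one of the settings in which this dependence has been studied.

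The values were RPKM, that is, reads scaled by gene length and by the total of reads, so that levels can be compared between genes of a sample. Reads here and below are those after the authors' adjustment for unwanted variation. The totals of reads behind the values ran from 29055819 to 34142988 per sample. MYCN itself, the target of the siRNA, had 1068 and 1073 RPKM in the Ctrl samples against 720.2 and 718.0 after knockdown, so the transcript was lowered but not removed. Its log2 fold change was -0.57 (limma adjusted p = 0.00361). All 10 adrenergic neuroblastoma markers were expressed in every sample, with a mean of at least 28.5 RPKM each, and their summed level was 3246 to 3509 RPKM in Ctrl and 4631 to 5001 RPKM in MYCN KD. Of 15 markers of leukocytes, epithelium, fibroblasts and endothelium, 3 had a mean of at least 1 RPKM (CD14, COL1A1 and PDGFRB). Their sums in Ctrl and in MYCN KD reached 1.77 and 1.77 RPKM for leukocytes, 1.07 and 2.04 for epithelium, 11.6 and 14.0 for fibroblasts, and 0.367 and 0.638 for endothelium. None of the 15 was at 0 in all 4 samples. The highest value in any sample was 1.75 RPKM for leukocytes (CD14), 1.28 for epithelium (KRT8), 11.8 for fibroblasts (PDGFRB) and 0.525 for endothelium (CDH5). Within the same classes, PTPRC reached 0.00464 RPKM, EPCAM 0.421 RPKM, COL1A2 0.0254 RPKM and PECAM1 0.0290 RPKM. The part of these marker levels in the results below was not tested. The deviations of Ctrl replicate 1 and MYCN KD replicate 1 from their group means were mirror images (correlation -0.9845 across 11411 genes, which are not independent replicates), as the values of most members below also show. The spread within a group thus ran mainly along a single axis.

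Of the 9 genes, 7 had a mean of at least 1 RPKM over the 4 samples and were tested with limma on log2(RPKM + 1), with Benjamini-Hochberg adjustment over all 11411 genes tested. SLC7A5, SLC3A2, GLUL and SLC1A5 fell upon MYCN knockdown, none of the 7 rose, and SLC38A1, SLC38A2 and SLC1A4 did not pass the threshold of 0.05. These are 4 lower genes of 7, where 22.8% of all tested genes were lower, 25.3% were higher and 48.1% passed in either direction. In 5 of the 7 both MYCN KD values lay below both Ctrl values (35.8% of all tested genes), and in 1, SLC38A2, both lay above (40.4%), so that the groups did not overlap in 6 of 7 (76.2% of all tested genes). These are bulk libraries, in which fewer cells that express a gene and less RNA per cell cannot be told apart. The median log2 fold change was -0.46 for the 7 and 0.026 for all tested genes. An exact two-sided permutation test cannot go below p = 0.3333 in this design of 2 samples per group, and gave that value for each of the 9 genes whose groups did not overlap.

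**Figure D1:**
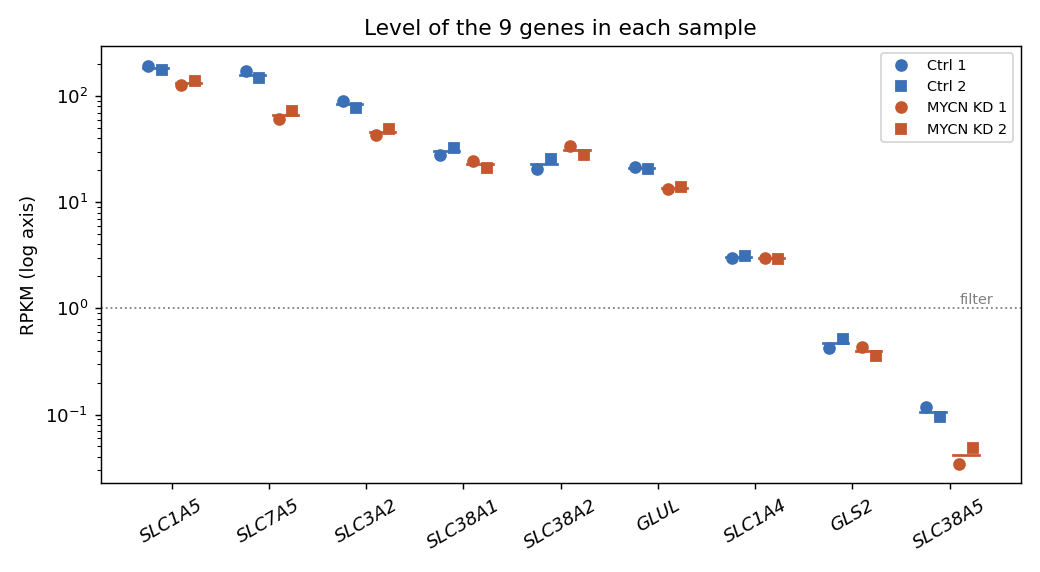
RPKM on a log axis for the 9 genes in each sample, with circles for replicate 1, squares for replicate 2 and horizontal bars for group means. SLC1A5 and SLC7A5 stand highest in Ctrl, at means of 184.2 and 159.7 RPKM, and GLS2 and SLC38A5 lie below the dotted line at 1 RPKM, the minimum for testing.

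The levels spanned more than 3 orders of magnitude. In Ctrl the order was SLC1A5, SLC7A5, SLC3A2, SLC38A1, SLC38A2, GLUL, SLC1A4, GLS2 and SLC38A5. SLC1A5, SLC7A5 and SLC3A2 ranked 365, 452 and 993 among the 11411 tested genes by their mean RPKM in Ctrl, which puts each in the top 8.70%. Neighbours in this order that overlapped in Ctrl were SLC38A2, at 20.7 and 25.6 RPKM, and GLUL, at 21.3 and 20.6 RPKM. In MYCN KD the order of SLC38A1 and SLC38A2 was exchanged, and the rest of the order was kept.

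The exchanger of large neutral amino acids, called LAT1, is made of the transport subunit encoded by SLC7A5 and the heavy chain CD98 encoded by SLC3A2, which carries the complex to the cell surface. SLC7A5 lies on the minus strand of chromosome 16 of GRCh37 from 87863629 to 87903113 and has 10 exons. Here and below, spans are those of the whole gene and exons those of its canonical transcript. It stood at 172.9 and 146.5 RPKM in the Ctrl samples, against 61.2 and 72.0 RPKM after knockdown. Every Ctrl value was thus more than 2 times each MYCN KD value, and the groups did not overlap. The mean fell from 159.7 ± 18.7 to 66.6 ± 7.66 RPKM (SD, n = 2), a ratio of 0.417. On the log2 scale the change was -1.25 with a standard error of 0.13 (limma adjusted p = 0.00785), the largest fall among the 7 tested members and outside the 5th to 95th percentile of all tested genes (-0.69 to 0.73). With each of the 4 samples left out in turn it lay between -1.37 and -1.13 and was past the threshold each time. Between 8073 and 26817 reads stood behind each value.

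The stretch before the start of SLC7A5 is shown because it holds an exact copy of CACGTG, the E-box that dimers of MYC family proteins with MAX bind. It is taken from RefSeq on GRCh38.p14, chr16:87869508-87869707 on the minus strand, and is written 5′ to 3′ up to the last base before the start, with the E-box in capitals. Its first base lies at -130 relative to the start.
SLC7A5: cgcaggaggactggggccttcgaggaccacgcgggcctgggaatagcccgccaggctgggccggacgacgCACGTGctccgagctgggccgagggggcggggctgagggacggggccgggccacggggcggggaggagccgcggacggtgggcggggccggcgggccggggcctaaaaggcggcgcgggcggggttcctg

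SLC3A2 lies on the plus strand of chromosome 11 of GRCh37 from 62623476 to 62656352 and has 9 exons. Both Ctrl samples, at 89.6 and 77.9 RPKM, lay above both knockdown samples, at 42.8 and 49.1 RPKM. The mean fell from 83.8 ± 8.27 to 46.0 ± 4.45 RPKM (SD, n = 2), a ratio of 0.549. On the log2 scale the change was -0.85 with a standard error of 0.11 (limma adjusted p = 0.0116). SLC3A2 also pairs with other light chains of the SLC7 family, of which SLC7A6 is described with the other transporters below.

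Transcripts of both subunits of LAT1 thus fell, and SLC7A5 had the lower value relative to SLC3A2 in both MYCN KD samples. The ratio of the RPKM of SLC7A5 to that of SLC3A2 within a sample was 1.93 and 1.88 in the Ctrl samples, against 1.43 and 1.47 after knockdown. It went from 1.91 ± 0.035 to 1.45 ± 0.026 (SD, n = 2), a log2 difference of -0.40. The gap between the groups was larger than the spread within them, and the exact two-sided permutation test gave p = 0.3333, the smallest the design allows.

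Uptake of glutamine is the role of SLC1A5, SLC38A1, SLC38A2 and SLC38A5. SLC1A5 encodes ASCT2, a sodium-dependent exchanger of neutral amino acids, and lies on the minus strand of chromosome 19 of GRCh37 from 47278140 to 47291851, with 8 exons. The Ctrl samples had 192.8 and 175.5 RPKM, and the knockdown samples 127.3 and 139.5 RPKM, without overlap. The mean fell from 184.2 ± 12.2 to 133.4 ± 8.69 RPKM (SD, n = 2), a ratio of 0.724. On the log2 scale the change was -0.46 with a standard error of 0.077 (limma adjusted p = 0.0193), and it was past the threshold with each of the 4 samples left out, at values from -0.53 to -0.40. SLC1A5 had the highest level of the 9 genes in all 4 samples.

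SLC38A1 and SLC38A2 encode the sodium-coupled carriers SNAT1 and SNAT2 and are neighbours on the minus strand of chromosome 12 of GRCh37. SLC38A1 runs from 46576846 to 46663800 with 17 exons, and SLC38A2 from 46751971 to 46766556 with 16 exons, 88.2 kb apart. SLC38A1 went from 28.1 and 32.7 RPKM in the Ctrl samples to 24.5 and 21.2 RPKM after knockdown. SLC38A2 had 20.7 and 25.6 RPKM in the Ctrl samples against 34.2 and 27.8 RPKM after knockdown. In neither gene did the groups overlap, with SLC38A1 lower and SLC38A2 higher in both MYCN KD samples.

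Neither change passed the threshold. The log2 fold change was -0.40 for SLC38A1 (95% interval -0.74 to -0.057, limma adjusted p = 0.0630) and 0.41 for SLC38A2 (95% interval -0.065 to 0.88, adjusted p = 0.118). The side of the threshold depended on single samples. SLC38A1 passed without Ctrl replicate 1 (-0.50, limma adjusted p = 0.000467) and without MYCN KD replicate 1 (-0.50, adjusted p = 0.000824), and SLC38A2 passed without Ctrl replicate 2 (0.56, adjusted p = 8.1e-05) and without MYCN KD replicate 2 (0.55, adjusted p = 0.000214). These fits of 3 samples assume that the lone sample varies like the group that still has a pair.

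Within each sample, where the deviations shared by both genes cancel, the separation was clearer. The ratio of the RPKM of SLC38A1 to that of SLC38A2 was 1.36 and 1.28 in the Ctrl samples but 0.716 and 0.761 after knockdown, so that it crossed 1 between the groups. Its place relative to 1 depends on the gene lengths behind the RPKM, 9973 and 4884 bases, whereas its shift between the groups does not. The log2 difference of the ratio was -0.84 (p = 0.3333 from the exact two-sided permutation test, the smallest possible). The sum of both levels overlapped between the groups, with 48.8 and 58.3 RPKM in the Ctrl samples and 58.7 and 49.0 RPKM after knockdown.

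SLC38A5 encodes SNAT5, a carrier of glutamine, asparagine, histidine and serine, and lies on chromosome X of GRCh37 from 48316920 to 48328648. It was close to absent, with 0.117 and 0.0940 RPKM in the Ctrl samples, and 0.0345 and 0.0486 RPKM after knockdown. These values stand for 8, 6, 2 and 3 reads. The summed reads were 14 in Ctrl (exact 95% Poisson interval 7.65 to 23.5) and 5 in MYCN KD (1.62 to 11.7), and the intervals, which cover counting error only, overlapped. Both MYCN KD values lay below both Ctrl values. SLC38A5 was below the minimum for testing. With no filter on low values it passed as lower, at -0.086 on the log2(RPKM + 1) scale (limma adjusted p = 0.0409), a call that rests on the few reads given above.

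Over the 4 importers, the summed RPKM was 241.7 and 234.0 in the Ctrl samples, against 186.0 and 188.6 after knockdown. SLC1A5 held 79.77% and 75.02% of this sum in the Ctrl samples, against 68.41% and 74.00% after knockdown. SLC38A2 held 8.55% and 10.9% in the Ctrl samples, against 18.4% and 14.7% after knockdown. SLC1A5 thus made up most of the importer transcripts in every sample. Its share was lower in both MYCN KD samples, but the nearest values, 75.02% and 74.00%, lay closer together than the replicates of either group. The share of SLC38A1 overlapped between the groups.

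**Figure D2:**
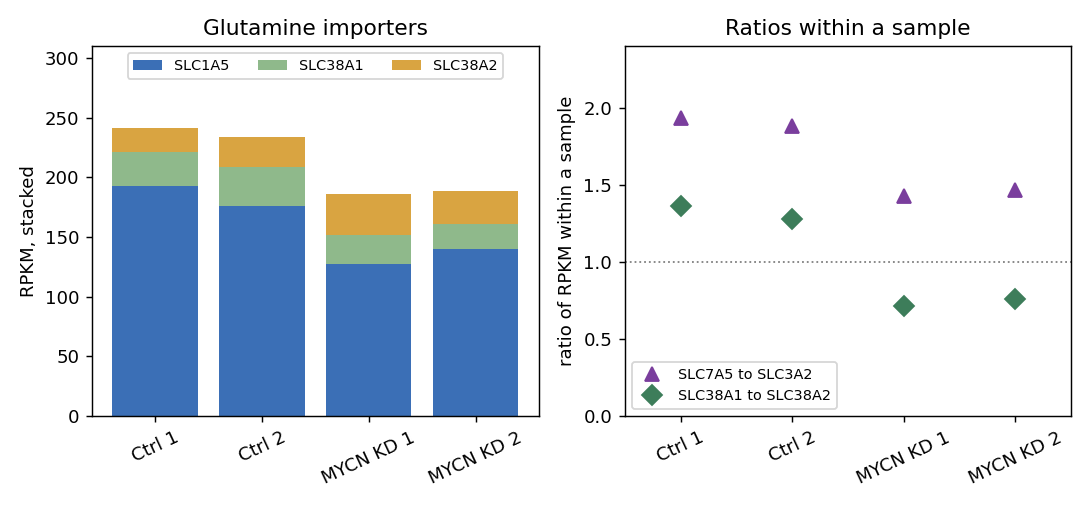
Left, stacked RPKM of SLC1A5, SLC38A1 and SLC38A2 in each sample (SLC38A5, under 0.12 RPKM, is not drawn). Right, the ratio of RPKM within a sample for SLC7A5 to SLC3A2 and for SLC38A1 to SLC38A2, with a dotted line at 1. The stacks are lower in both MYCN KD samples, and SLC38A1 to SLC38A2 lies above 1 in Ctrl and below 1 in MYCN KD.

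SLC1A4 encodes ASCT1, the closest relative of ASCT2, which exchanges alanine, serine, cysteine and threonine and does not carry glutamine well. It lies on the plus strand of chromosome 2 of GRCh37 from 65215611 to 65250999 and has 8 exons. The groups overlapped, at 2.99 and 3.11 RPKM in the Ctrl samples, and 3.01 and 2.90 RPKM after knockdown. The log2 fold change was -0.034 (95% interval -0.16 to 0.095, limma adjusted p = 0.558). From 418 to 487 reads stood behind each value. SLC1A5 had 64.6 and 56.5 times the level of SLC1A4 in the Ctrl samples, but 42.3 and 48.2 times after knockdown.

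GLUL encodes glutamine synthetase, which makes glutamine from glutamate and ammonia, and lies on the minus strand of chromosome 1 of GRCh37 from 182347233 to 182361341, with 7 exons. It had 21.3 and 20.6 RPKM in the Ctrl samples, but 13.4 and 13.9 RPKM after knockdown. The replicates lay close together and the groups well apart. The mean fell from 21.0 ± 0.497 to 13.7 ± 0.329 RPKM (SD, n = 2), a ratio of 0.651, and the change on the log2 scale was -0.59 with a standard error of 0.043 (limma adjusted p = 0.00489). Transcripts of glutamine synthetase and of SLC1A5, the highest of the importer genes by RPKM, were thus both lower. Protein and transport were not measured for them.

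GLS2 encodes the liver-type glutaminase, known as a target of p53, and lies on chromosome 12 of GRCh37 from 56864728 to 56882198. The Ctrl samples had 0.420 and 0.517 RPKM, from 39 and 45 reads, and the knockdown samples 0.430 and 0.356 RPKM, from 34 and 30 reads. The groups overlapped, and GLS2 was below the minimum for testing. The summed reads were 84 in Ctrl (exact 95% Poisson interval 67.0 to 104.0) and 64 in MYCN KD (49.3 to 81.7).

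**Figure D3:**
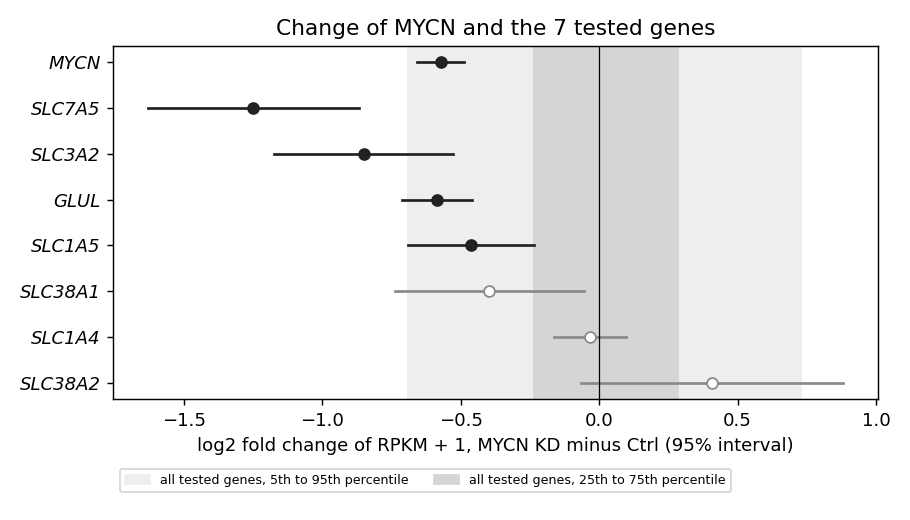
Log2 fold change of RPKM + 1, MYCN KD minus Ctrl, for MYCN and the 7 tested genes, with 95% intervals from limma; filled points are past an adjusted p of 0.05. Grey bands give the central ranges of all 11411 tested genes, and SLC7A5 and SLC3A2, at -1.25 and -0.85, lie to the left of both bands.

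RefSeq starts on GRCh38.p14 define windows of 300 bases, 250 before the start and 50 after, and the first start listed for each gene was used. This restriction was set after the matches at all starts were seen. All 9 genes had an entry. The E-box CACGTG, searched on both strands, was found in 2 of the 9 genes, SLC7A5, printed above, and SLC38A5, against 7.43% of all 27305 genes in the table. The core of the C/EBP-ATF response element, TGATGNAA on either strand, through which ATF4 acts on genes of amino acid supply, was found in 2 of the 9 genes, SLC3A2 and SLC38A1, against 3.67% of all genes. The 2 motifs share no match. The C/EBP-ATF matches begin at +38 in SLC3A2, after the start, and at -4 in SLC38A1. A match describes the letters in these windows and is not a binding site. The stretches below are shown so that both kinds of match can be set beside the changes, with the motif in capitals, 5′ to 3′ on the strand of the gene.
SLC38A5, chrX:48470448-48470477, minus strand: cctgtagcggaCACGTGgcttgcctgggac
SLC3A2, chr11:62881725-62881748, plus strand: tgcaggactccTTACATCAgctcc
SLC38A1, chr12:46266502-46266531, minus strand: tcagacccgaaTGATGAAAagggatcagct
Of the genes with an E-box in this window, SLC7A5 fell and SLC38A5 was below the minimum for testing. Of those with the C/EBP-ATF core, SLC3A2 fell and SLC38A1 did not pass the threshold. The other genes had neither motif at the first start listed, and among them were GLUL and SLC1A5, which fell. Further starts of these genes are not described, so the absence of a match holds for this window alone.

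Around the 9 genes, 3 lists of the same pathway were described, also chosen with earlier results of these data known. Enzymes that use or make glutamine and glutamate held 12 lower and 4 higher genes among 24 tested, with 8 that did not pass. These are 50% lower and 16.7% higher, beside 22.8% lower and 25.3% higher among all tested genes. The median log2 fold change of the enzymes was -0.34, against 0.026 for all tested genes. The largest falls were those of PSAT1, PFAS and ALDH18A1. PSAT1, the transaminase of serine synthesis that uses glutamate, fell from 114.2 ± 0.473 to 43.3 ± 0.0878 RPKM (SD, n = 2), which on the log2 scale is a change of -1.38 (limma adjusted p = 0.00359). PFAS, a glutamine amidotransferase of purine synthesis, had a log2 fold change of -0.99, and ALDH18A1, which starts proline synthesis from glutamate, of -0.93 (limma adjusted p = 0.00436 and 0.00359). Asparagine synthetase, ASNS, which takes its nitrogen from glutamine, fell from 36.9 ± 0.221 to 22.4 ± 0.0986 RPKM (SD, n = 2), which on the log2 scale is a change of -0.70 (limma adjusted p = 0.00359). Higher were ABAT, which breaks down GABA (0.86, limma adjusted p = 0.00510), NADSYN1, which makes NAD with nitrogen from glutamine (0.54, adjusted p = 0.0173), and GFPT1, which opens the hexosamine pathway with glutamine (0.41, adjusted p = 0.0181); IDH2 was the other higher gene, at 0.21. With the replicate block GFPT1 no longer passed (limma adjusted p = 0.0510).

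Other amino acid transporters were split. Of 51 in the list, 21 were tested, 7 were higher and 5 were lower, which is 33.3% and 23.8%, beside 25.3% and 22.8% among all tested genes, with a median log2 fold change of -0.0090. SLC7A2, a carrier of arginine, lysine and ornithine, rose from 19.6 ± 2.27 to 52.9 ± 5.99 RPKM (SD, n = 2), which on the log2 scale is a change of 1.38 (limma adjusted p = 0.00653), which is close in size to the fall of SLC7A5 and opposite in sign. SLC38A11, a relative of SLC38A1, and SLC36A1, a proton-coupled carrier of small amino acids on lysosomes, rose by log2 fold changes of 0.89 each (limma adjusted p = 0.0316 and 0.00365). SLC6A15, a sodium-coupled carrier of branched-chain amino acids and proline, SLC25A13, the mitochondrial exchanger of aspartate and glutamate, and SLC7A6, another light chain that pairs with SLC3A2, had log2 fold changes of -0.76, -0.75 and -0.73 (limma adjusted p = 0.0326, 0.0104 and 0.00543). With no filter on low values, SLC38A11 and SLC6A15 no longer passed (limma adjusted p = 0.0534 and 0.0543). The count of lower genes was 3 without Ctrl replicate 1 and 3 without MYCN KD replicate 1. SLC7A11, the cystine and glutamate exchanger that also pairs with SLC3A2, was below the minimum for testing, at 0.559 and 0.875 RPKM in the Ctrl samples, and 0.517 and 0.335 RPKM after knockdown.

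In the machinery that senses amino acids upstream of mTORC1, 6 of 35 tested genes were higher and 6 were lower, which is 17.1% in each direction, beside 25.3% higher and 22.8% lower among all tested genes. The median log2 fold change was 0.082. Higher were FLCN, a GTPase activator of RagC and RagD (0.65, limma adjusted p = 0.0179), SESN3, of the sestrin family that restrains mTORC1 (0.52, adjusted p = 0.0471), and the GTPase RRAGC (0.47, adjusted p = 0.0313). Lower were SESN1, the relative of SESN3 (-0.48, limma adjusted p = 0.00509), C12orf66, a subunit of the KICSTOR scaffold (-0.47, adjusted p = 0.0226), and MLST8, a subunit of mTORC1 itself (-0.39, adjusted p = 0.0437). SLC38A9, the lysosomal arginine sensor of the SLC38 family, had overlapping groups, at 2.26 and 2.71 RPKM in the Ctrl samples against 2.55 and 2.14 RPKM after knockdown (limma adjusted p = 0.659). With no filter on low values, SESN3, RRAGC and MLST8 no longer passed (limma adjusted p = 0.0737, 0.0510 and 0.0680), nor did SESN3 with samples rescaled to equal totals (adjusted p = 0.0502). The count of lower genes was 3 without MYCN KD replicate 2.

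**Figure D4:**
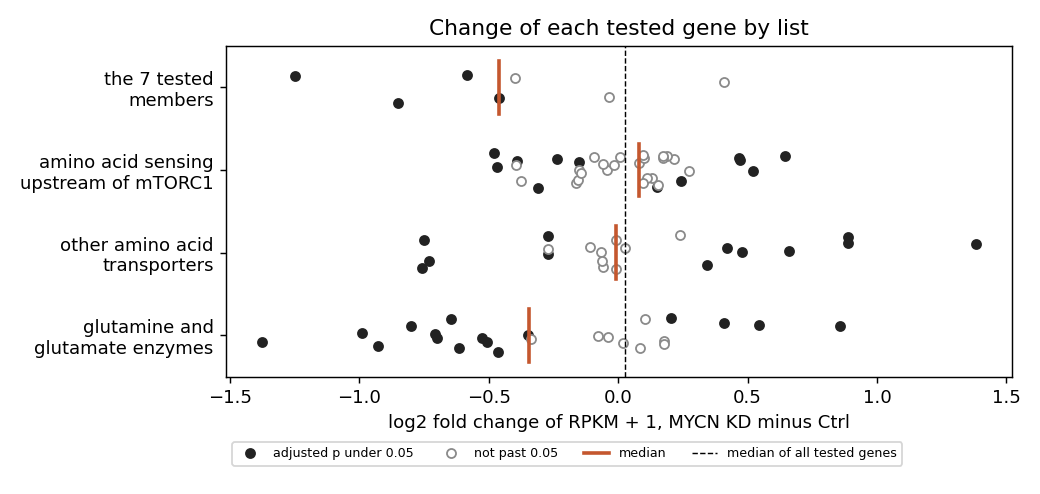
Log2 fold change of RPKM + 1, MYCN KD minus Ctrl, for each tested gene of the 3 pathway lists and for the 7 tested members; filled points are past an adjusted p of 0.05, vertical offsets only separate points, and orange bars are medians. The medians are -0.34 for the enzymes, -0.0090 for other transporters, 0.082 for amino acid sensing and -0.46 for the members, with a dashed line at 0.026 for all tested genes.

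The genes whose values over the 4 samples lay closest to those of SLC7A5, the member with the largest fall, were STC2, EXOSC5 and CBX6, at distances of 0.0452, 0.0487 and 0.0699 between centred log2(RPKM + 1) values. They had log2 fold changes of -1.26, -1.30 and -1.32. EXOSC5, for example, had 90.5 and 76.7 RPKM in the Ctrl samples, but 30.7 and 36.1 RPKM after knockdown, with the higher Ctrl value in replicate 1 and the higher MYCN KD value in replicate 2, as in SLC7A5. This order or its reverse is common in the series. Deviations of Ctrl replicate 1 and MYCN KD replicate 2 from their group means correlated at 0.9845 across all tested genes. With 2 samples per group, this is the negative correlation given above for replicate 1 of both groups with its sign reversed, not a further result. The likeness is over 4 samples of 2 groups, which leaves few ways for patterns to differ.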

How the data were processed

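Ctrl and MYCN KD, each with 2 RNA-seq samples of BE(2)C cells, were grouped by their titles. The authors' steps were mapping to hg19 (GRCh37) with HISAT2 2.1.0, counting on RefSeq annotation with featureCounts, modelling with DESeq2 and RUVSeq adjustment for unwanted variation. From the adjusted counts they deposited RPKM values, in 1 file per sample. That adjustment was not repeated here, and its effect on replicate spread was not tested. Some adjusted values lay closer together than counting error would usually leave them. SLC32A1, of the transporter list, had 1.138 and 1.142 RPKM in Ctrl from 50 and 47 reads (exact 95% Poisson interval of the first 37.1 to 65.9). GLS2 and GFPT2, of the enzyme list, had the same reads in the 4 samples, 39, 45, 34 and 30. The SDs, standard errors and p-values may therefore understate the spread between samples. The version of RUVSeq is not given in the sources used here.

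Whole reads and the total behind each sample were computed from the RPKM of small RNA genes of known length. With these totals, 99.88% of the 19908 genes above 0 gave whole reads within 0.02 reads. As the RPKM were made from adjusted counts, these are adjusted rather than raw reads, and the Poisson intervals treat them as counts and cover counting error only.

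The 11411 genes whose mean RPKM reached 1 were tested with limma 3.58.1 under R 4.3.3 on log2(RPKM + 1) (lmFit, then eBayes with a trend, no block), two-sided, adjusted by Benjamini-Hochberg, with calls at 0.05. Fold changes are on that scale, which understates changes of low genes. The exact permutation test used scipy 1.17.1 (Python 3.11.15, numpy 2.4.6, pandas 2.3.3, matplotlib 3.10.9). Genes were placed with GENCODE release 44 lifted to GRCh37, and exons were counted on the canonical transcript. Promoter windows came from RefSeq on GRCh38.p14, with the first start listed for each gene, a restriction set after the matches at all starts were seen.

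The members and lists were chosen with earlier results of these data known. Named genes were MYCN, the members, SLC7A11, ASNS, SLC38A9, the 3 largest rises and falls past the threshold without overlap in each list, and the 3 genes nearest to the member with the largest fall (and rise, of which there was none). IDH2, SLC32A1 and GFPT2 were named after their values were seen. A further named gene of the enzyme list is not reported here, and the list's counts leave it out. Alternatives were limma voom on whole reads, the replicate block, leaving out each sample, a constant prior variance, other pseudocounts, a higher minimum or no filter on low values, and other scalings. A crossed block was added after seeing the data.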

Additional observations from a re-analysis of the deposited data

How the results depend on the processing

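SLC7A5, SLC3A2, SLC1A5 and GLUL stayed lower and past the threshold under each alternative run on them. The cause of the changes below was not tested. When a replicate block was added, SLC38A1 (-0.40, adjusted p = 0.0284 from limma) and SLC38A2 (0.41, adjusted p = 0.0241) passed, and 2077 genes were higher and 1851 lower, against 2890 and 2599 without it. The enzymes then held 2 higher genes, and other transporters and amino acid sensing 3 lower genes each. Same-numbered samples did not deviate together (correlation -0.9845), so the numbers were not taken as pairs. A crossed replicate block, chosen after seeing the data, called 5910 genes higher and 5262 lower. These are nearly all of the 11411 tested genes, and no call above rests on this block. With quantile normalization SLC38A1 passed at -0.38 (adjusted p = 0.0493 from limma). With samples rescaled to equal totals, SLC1A4 changed sign to 0.012, and 7 enzymes were higher. With a mean RPKM of at least 5, 1868 genes were higher, 3 sensing genes were lower, and SLC1A4 was not tested. With a pseudocount of 0.1, SLC38A5 was at -0.54 and GLS2 at -0.20, from -0.086 and -0.076. With a sample left out, SLC38A1 ranged from -0.50 to -0.29, SLC38A2 from 0.26 to 0.56 and SLC38A9 from -0.15 to 0.033, and the lower genes numbered from 3 to 5 for other transporters and for sensing. Depth limits SLC38A5 and GLS2 alone among the members.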
